A study of Mus musculus with 16 samples.

Results

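The response to IL-33 of mast cells that lack Nbeal2 was measured by comparing 4 libraries of Nbeal2-/- cultures that received IL-33 with 4 libraries of untreated Nbeal2-/- cultures. These 8 libraries were taken from the 16 of the study by their genotype and treatment labels, and all 55487 genes of the count table were considered. The other 8 libraries, 4 untreated and 4 IL-33, came from wild-type (WT) cultures and served to test where the response differed. All cultures were grown from bone marrow of mice with a C57BL/6 background, and polyadenylated RNA was sequenced. Both groups of 4 carry the Nbeal2-/- genotype, so neither shows the effect of the deletion itself. How much IL-33 was given and for how long, how old the cultures were, which part of Nbeal2 was deleted and how many animals stood behind a culture are not stated in the labels.

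IL-33 is an alarmin of the IL-1 family that is released from damaged barrier cells. Mast cells sense it through ST2, encoded by Il1rl1, which pairs with the shared chain Il1rap and signals through the adaptor Myd88, IRAK kinases and Traf6 to NF-kB and MAP kinases, without the degranulation that IgE and antigen cause. Nbeal2 encodes a BEACH-domain protein of granule-forming cells, which platelets need for their alpha granules.

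Library totals of the Nbeal2-/- cultures ran from 36405209 to 52066492 counts, so a level of 1 CPM, counts scaled to library totals, rested on at least 36.4 counts. The sample labels expand the cell name as mononuclear cells and the series title as mast cells, so the defining transcripts were checked. The 14 mast cell markers summed to 47112 to 52049 CPM in untreated and 52062 to 55355 CPM in IL-33 libraries, and 13 of them were detected, with Enpp3 at 0 counts. Lymphocyte, neutrophil and fibroblast markers summed to at most 1.52 CPM in any library. Monocyte and macrophage markers summed to 206 to 290.1 and 107 to 129 CPM, mostly Cx3cr1, while C1qa, C1qb, C1qc, Lyz1, Mrc1 and Itgam stayed under 0.1 CPM. Adgre1 was at 19.2 to 32.35 and 16.3 to 21.8 CPM, Cd68 at 4.81 to 6.20 and 4.02 to 4.93 CPM, and Lyz2 reached at most 3.37 CPM. Dendritic cell markers summed to 6.55 to 7.72 CPM in untreated and 1008 to 1304 CPM in IL-33 libraries, of which nearly all were Cd74 and H2-Aa, while Xcr1 and Siglech had 0 counts and Flt3 and Clec9a 1 count each. Megakaryocyte and platelet markers summed to 2321 to 2499 and 1504 to 1614 CPM, mostly Itga2b, with Ppbp, Gp1bb and Treml1 at 0 counts. Others of this list were present, Gp1ba at 202 to 257 and 45.4 to 52.5 CPM and Vwf at 98.3 to 134 and 92.4 to 109 CPM. Gp5 was at 52.4 to 59.1 and 3.2 to 4.84 CPM and Gp9 at 0.159 to 0.360 and 1.54 to 2.59 CPM. Basophil markers, which include Fcer1a, summed to 5681 to 6465 and 5514 to 5681 CPM, progenitor markers, which include Kit, to 3732 to 4299.9 and 3403 to 3503 CPM, and eosinophil markers to 8.48 to 11.3 and 2.42 to 3.82 CPM, with Epx at 0 counts. Erythroid markers summed to 4.88 to 6.89 and 20.8 to 28.4 CPM, with Hbb-bs and Hbb-bt higher with IL-33, Hba-a1 at 0.864 to 1.68 and then 0.174 to 0.330 CPM, Hba-a2 at 0.615 to 1.27 and then 0.0744 to 0.191 CPM, and no count of Slc4a1. Kit, the stem cell factor receptor of mast cells and progenitors, was at 2073 to 2789 CPM without and 1000.2 to 1177 CPM with IL-33. Of 7 progenitor markers tested, Kit, Meis1 and Mecom fell and Cd34, Myb, Ly6a and Sox4 rose. The marker genes named here were chosen after their values were seen. In bulk RNA, fewer cells of a type and less RNA per cell cannot be told apart.

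The first principal component of the 8 libraries held 89.6% of the variance and separated IL-33 from untreated libraries. The second held 6.19% and set culture 1 apart from cultures 2 to 4 in both conditions. Xist, the RNA that coats the silenced X chromosome, likewise chosen after its values were seen, did not exceed 0.0404 CPM in culture 1 and stood at 127 to 1328 CPM in the others, and cultures 2, 3 and 4 carried it beside Y-linked transcripts, which were at 21.3 and 22.7 CPM in culture 2 and at 124 to 165 CPM in cultures 3 and 4. The part of this mixture in any result was not tested, and each culture has 1 library in either condition. Nbeal2 itself (ENSMUSG00000056724, chromosome 9, 110624789 to 110654161 of GRCm38) was at 85.0, 103, 95.7 and 87.2 CPM in untreated cultures 1 to 4 and at 76.9, 64.3, 68.9 and 72.8 CPM in the IL-33 cultures. The IL-33 values all lay below the untreated ones, at a log2 fold change of -0.39 (adjusted p = 0.0644), which missed the threshold of 0.05. With the culture number as a replicate block the same log2 fold change of -0.39 passed it (adjusted p = 0.00383). The fall also passed without a block in Nbeal2-/- libraries alone (adjusted p = 0.000775), on library totals (0.0201), by DESeq2 (0.0338) and by limma (0.0269). It missed with DESeq2 size factors in edgeR (0.0721), without a filter (0.122) and in each fit that left out a Nbeal2-/- library or culture 1. In WT, Nbeal2 was at means of 377 CPM without and 236 CPM with IL-33. Counts per gene do not show which exons these reads cover.

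With IL-33, 8524 of 15470 genes tested were called changed in Nbeal2-/- cells, a minority of them by more than 2-fold. The edgeR quasi-likelihood test with Benjamini-Hochberg adjustment gives every adjusted p of a gene here unless another test is named. By it 4209 of 15470 genes tested rose (27.2%) and 4315 fell (27.9%). These shares are the reference for every list count below. More than 2-fold changes were seen for 892 genes that rose (5.77%) and 1038 that fell (6.71%), and more than 8-fold changes for 238 and 122. The 4 IL-33 libraries all lay above the 4 untreated ones for 3865 genes (25.0%) and all below for 3975 (25.7%). Of the genes called higher, 95.2% were higher in 4 of 4 cultures, and of those called lower, 96% were lower in 4 of 4. Without culture 1, 3778 rose and 4227 fell.

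Changes beyond 8-fold were more often rises than falls. There were 27 genes with at most 3 counts over the untreated libraries that reached 1 CPM or more with IL-33, and 0 genes in the reverse case. The balance of higher and lower calls depends on scaling. Calls were 49.4% higher with TMM scaling and 33.5% higher on library totals alone, which moved the median log2 fold change of all genes from -0.013 to -0.127. Changes are given relative to the TMM scale.

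**Figure D1:**
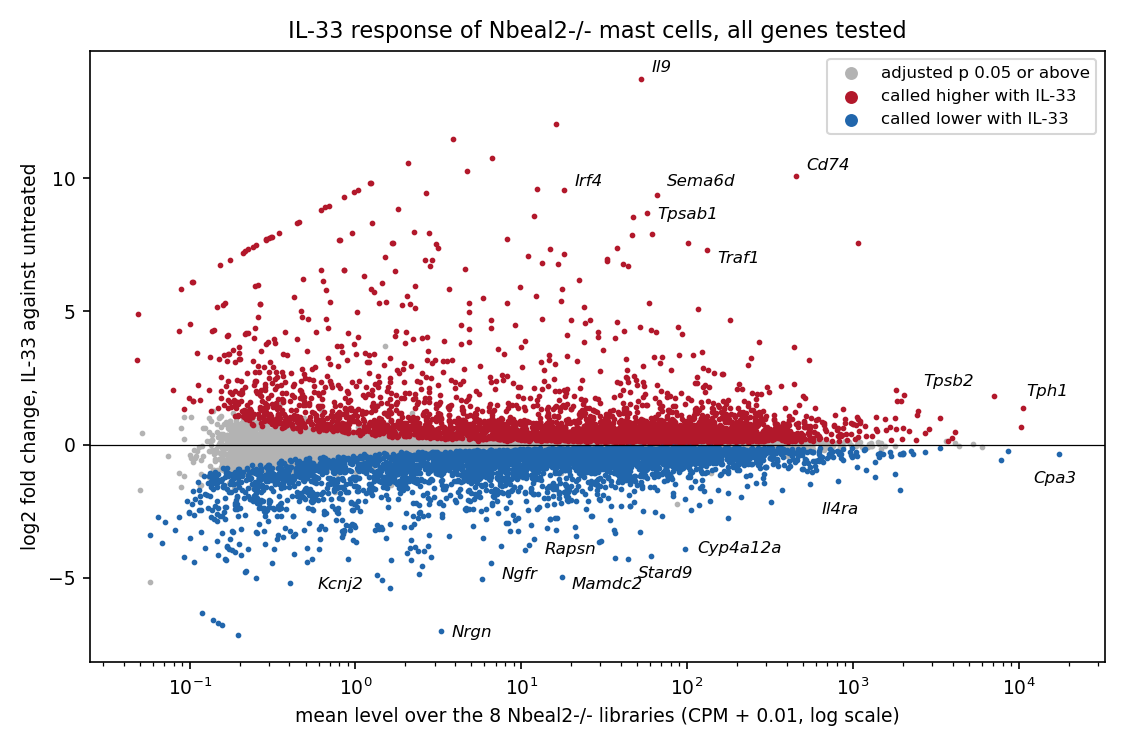
Log2 fold change of IL-33 against untreated in Nbeal2-/- cells (vertical axis) against the mean level over the 8 Nbeal2-/- libraries (CPM + 0.01, horizontal axis, log scale) for the genes tested, 1 point per gene, with 4 libraries per group. Red points were called higher, blue points lower and grey points neither, and 892 genes rose and 1038 fell by more than 2-fold.

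Protein-coding transcripts of the mast cell granule led the untreated cells and still led after IL-33, in another order. Per length (RPKM as deposited), carboxypeptidase Cpa3 was first without IL-33, at a level of 13354 ± 711 RPKM, and chymase Cma1 second, at 7597 ± 906. With IL-33 Cma1 was first at 11120 ± 175 RPKM, Cpa3 second at 9757 ± 354 and the tryptase Tpsb2 next at 6687 ± 832, up from 2043 (SD, n = 4). Fcer1a, the IgE-binding chain of the high-affinity IgE receptor, ranked 4 in both conditions, at 5450 ± 327 and 5136 ± 71.6 RPKM, and Ifitm1, an interferon-induced membrane protein, was at 3375 ± 246 and 3455 ± 93.2 RPKM. The 10 most abundant genes took 7.88% ± 0.138 of the counts in untreated and 8.56% ± 0.135 in IL-33 libraries (SD, n = 4). The groups did not overlap (two-sided exact permutation test, p = 0.0286, the smallest p that 4 against 4 allows).

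NF-kB was read through its subunits and through the inhibitors that it is known to induce in other cells. Of 12 NF-kB and IKK subunit genes 11 rose and 0 fell, at a median log2 fold change of 0.38 against -0.013 over all genes tested. Of 17 tested genes that restrain IL-1 family and NF-kB signalling, 13 rose and 3 fell, with a median of 1.15. Of 11 TRAF and IAP adaptors 8 rose, with a median of 0.28.

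Promoters of 3 of these genes are shown because the motif bound by NF-kB lies close to their start sites. They are RefSeq windows on GRCm38.p6 from 250 bases before to 50 after the start, given 5′ to 3′ on the gene's strand, with kB matches on either strand in capitals. kB is here a degenerate consensus that opens with GGG and a purine and closes with pyrimidines and CC. 
Nfkbia, chr12:55492598-55492897, minus strand: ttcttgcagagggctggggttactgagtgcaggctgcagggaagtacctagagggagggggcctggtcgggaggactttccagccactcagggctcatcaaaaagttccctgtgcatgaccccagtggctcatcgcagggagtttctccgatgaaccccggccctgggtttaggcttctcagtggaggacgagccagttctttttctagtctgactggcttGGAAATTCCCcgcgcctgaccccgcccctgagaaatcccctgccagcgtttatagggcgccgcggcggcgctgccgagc
Nfkb2, chr19:46304487-46304786, plus strand: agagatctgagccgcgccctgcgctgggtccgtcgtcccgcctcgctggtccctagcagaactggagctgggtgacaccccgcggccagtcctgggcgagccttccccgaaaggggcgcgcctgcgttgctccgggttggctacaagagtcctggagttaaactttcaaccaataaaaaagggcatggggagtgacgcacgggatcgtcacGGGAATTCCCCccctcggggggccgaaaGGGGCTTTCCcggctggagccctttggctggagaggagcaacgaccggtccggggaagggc
Tnip3, chr6:65590148-65590447, plus strand: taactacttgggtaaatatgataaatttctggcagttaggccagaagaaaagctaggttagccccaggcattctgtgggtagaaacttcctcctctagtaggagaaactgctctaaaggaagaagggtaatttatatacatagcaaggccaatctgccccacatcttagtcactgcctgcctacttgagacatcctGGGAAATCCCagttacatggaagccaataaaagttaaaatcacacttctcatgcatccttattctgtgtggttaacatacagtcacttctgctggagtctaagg
The match began at position -29 from the start in Nfkbia and -54 in Tnip3. Nfkb2 had 3 matches in this window, beginning at -39, -38 and -11, of which the first and second overlap. Searched on both strands, kB stood in windows of 13 of the 32 genes with a window among the 40 tested on these 3 lists (40.6%), and in 12.3% of 10170 tested genes with a window. It stood in 19.5% of the 605 genes with a window that rose by more than 2-fold and in 11.9% of the 697 that fell by more than 2-fold. With another spelling, GGANTTTCC, whose matches are not all kB matches and are not in capitals, the share was 12.5% of the 32 and 1.65% of the 10170. A match is a description of sequence and does not show binding.

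Nfkbia, which encodes the inhibitor that holds NF-kB in the cytoplasm, was at 11.7, 8.80, 9.59 and 9.55 CPM in the untreated and 178, 162, 179.9 and 182 CPM in the IL-33 libraries. The groups were far apart (log2 fold change 4.15 with an SE of 0.08, adjusted p = 4.57e-17). Nfkb2, the p100 precursor of the alternative pathway, was at 47.5, 45.1, 44.7 and 43.9 and 451, 422, 429 and 449 CPM (log2 fold change 3.27 with an SE of 0.05, adjusted p = 1.89e-18). Its partner Relb rose in step, from 7.46–9.54 to 74.7–82.1 CPM (log2 fold change 3.20 with an SE of 0.06, adjusted p = 6.68e-17). For all 3 genes every IL-33 library lay above every untreated one. Tnip3, a ubiquitin-binding partner of A20, went from 0.490–0.750 to 30.0–37.5 CPM (log2 fold change 5.83 with an SE of 0.13, adjusted p = 4.41e-16). The adaptor Traf1 was nearly silent at 1.33, 2.10, 1.77 and 1.41 CPM and reached 255, 267, 266 and 261 CPM (log2 fold change 7.30 with an SE of 0.17, adjusted p = 7.66e-16). Smaller rises were those of Nfkb1 (log2 fold change 0.53), the kinase Ikbke (0.72), Traf2 (1.01), Tnip1 (1.65) and the IAP gene Birc3 (54.7–64.4 to 179.8–188 CPM), while the nuclear IkB protein Nfkbiz rose by 3.48.

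The receptor pathway upstream mostly moved little. Of its 14 tested genes 2 rose and 5 fell, against 27.2% and 27.9% of all genes tested. Myd88 was at 88.3, 89.3, 87.0 and 86.9 CPM without and 58.4, 55.6, 54.9 and 59.9 CPM with IL-33, with no overlap (log2 fold change -0.62 with an SE of 0.04, adjusted p = 1.85e-09). Irak1 rose by 0.23 on the log2 scale. The ubiquitin ligase gene Peli2 fell to near 0, from 0.416–0.653 to 0–0.0986 CPM. Among 12 regulators of cytokine mRNA decay 2 rose and 4 fell, again against 27.2% and 27.9% of all genes tested. The endonuclease gene Zc3h12a, known as Regnase-1, had the change with the smallest p, from 15.6–16.3 to 154–169 CPM (log2 fold change 3.35 with an SE of 0.05, adjusted p = 2.29e-18), while Zfp36l1, which binds AU-rich elements, was at 44.2–46.3 and then 27.6–31.6 CPM (log2 fold change -0.60 with an SE of 0.05, adjusted p = 2.85e-08).

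Cytokine and chemokine genes gave the widest ranges. Il9, the gene of a cytokine that expands mast cells, had 1 count over the 4 untreated libraries, and 85.0, 112, 110.5 and 114 CPM in the IL-33 libraries. The ratio of counts was 20898, with a 95% counting interval of 3750.3 to 825474, which covers counting error only. Csf2, encoding GM-CSF, likewise had 1 untreated count and 9.98, 13.6, 13.5 and 15.8 CPM with IL-33, a ratio of 2622, with a 95% counting interval of 470.2 to 103633. Il13, a type 2 cytokine, was already present at 4.44, 5.43, 4.20 and 4.56 CPM and reached 76.1, 114, 94.4 and 112 CPM (log2 fold change 4.41 with an SE of 0.20, adjusted p = 3.31e-11). All IL-33 values of the 3 genes lay above all untreated values. Csf1, encoding M-CSF, went the other way, from 24.6–31.3 to 5.03–7.84 CPM (log2 fold change -2.17 with an SE of 0.12, adjusted p = 1.05e-10).

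Of 9 inflammatory and regulatory cytokine genes tested 7 rose, with a list median log2 fold change of 2.40. Il1a was at 1.43, 0.530, 0.795 and 0.621 CPM and then 84.0, 97.3, 82.0 and 87.8 CPM (log2 fold change 6.70 with an SE of 0.26, adjusted p = 4.23e-12). Ebi3, the shared subunit of IL-27 and IL-35, rose from 2.63–3.29 to 68.7–75.2 CPM (log2 fold change 4.60 with an SE of 0.08, adjusted p = 1.58e-17), by less than in WT, where the log2 fold change was 5.19 (difference -0.58, SE 0.11, adjusted p = 0.007). Among growth factors Vegfc, the lymphatic growth factor, rose from 30.7–36.1 to 108–126 CPM and Hbegf, an EGF receptor ligand, fell from 7.08–7.61 to 2.27–3.57 CPM. Vegfc had a log2 fold change of 1.81 and Hbegf of -1.34.

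Of 13 chemokine genes tested 10 rose and 2 fell, at a median of 4.28. Ccl1, a ligand of Ccr8, was at 0.952, 0.403, 0.469 and 0.599 CPM without and 37.2, 46.4, 42.4 and 48.7 CPM with IL-33. Cxcl16, the transmembrane chemokine, went from 0.416, 0.329, 0.449 and 0.599 to 68.5, 74.3, 77.0 and 80.7 CPM (log2 fold change 7.39 with an SE of 0.17, adjusted p = 7.41e-16). Ccl22, a ligand of Ccr4, had 1 count in the untreated libraries and 8.57, 8.52, 9.11 and 11.4 CPM after IL-33, a count ratio of 1883, with a 95% counting interval of 337 to 74412. Ccl3, a ligand of Ccr1, rose from 1.67–2.16 to 43.5–56.4 CPM and Ccl5 from 0.107–0.238 to 17.6–24.7 CPM. None of these groups overlapped.

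Among other secreted or surface ligands, C1ql2, Sema6d and Cd70 were switched on from near silence. C1ql2, a C1q-like synaptic protein, had 0 counts in the untreated group and 6.22, 6.88, 6.20 and 11.8 CPM after IL-33, at least 519-fold higher against a floor of 3 counts over the group. The semaphorin Sema6d was at 0.119, 0.201, 0.204 and 0.257 CPM and reached 134, 133, 136 and 122 CPM (log2 fold change 9.38 with an SE of 0.11, adjusted p = 1.72e-19). The TNF family ligand Cd70 had 1 untreated count and 1.35–1.80 CPM with IL-33 (count ratio 313, with a 95% counting interval of 55.7 to 12426), and the death ligand Tnfsf10 rose from 26.3–33.2 to 79.5–86.8 CPM. The intracellular Serpinb1a, which inhibits neutrophil proteases, fell from 1771–2155 to 790.3–868 CPM (log2 fold change -1.22 with an SE of 0.07, adjusted p = 1.03e-10).

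**Figure D2:**
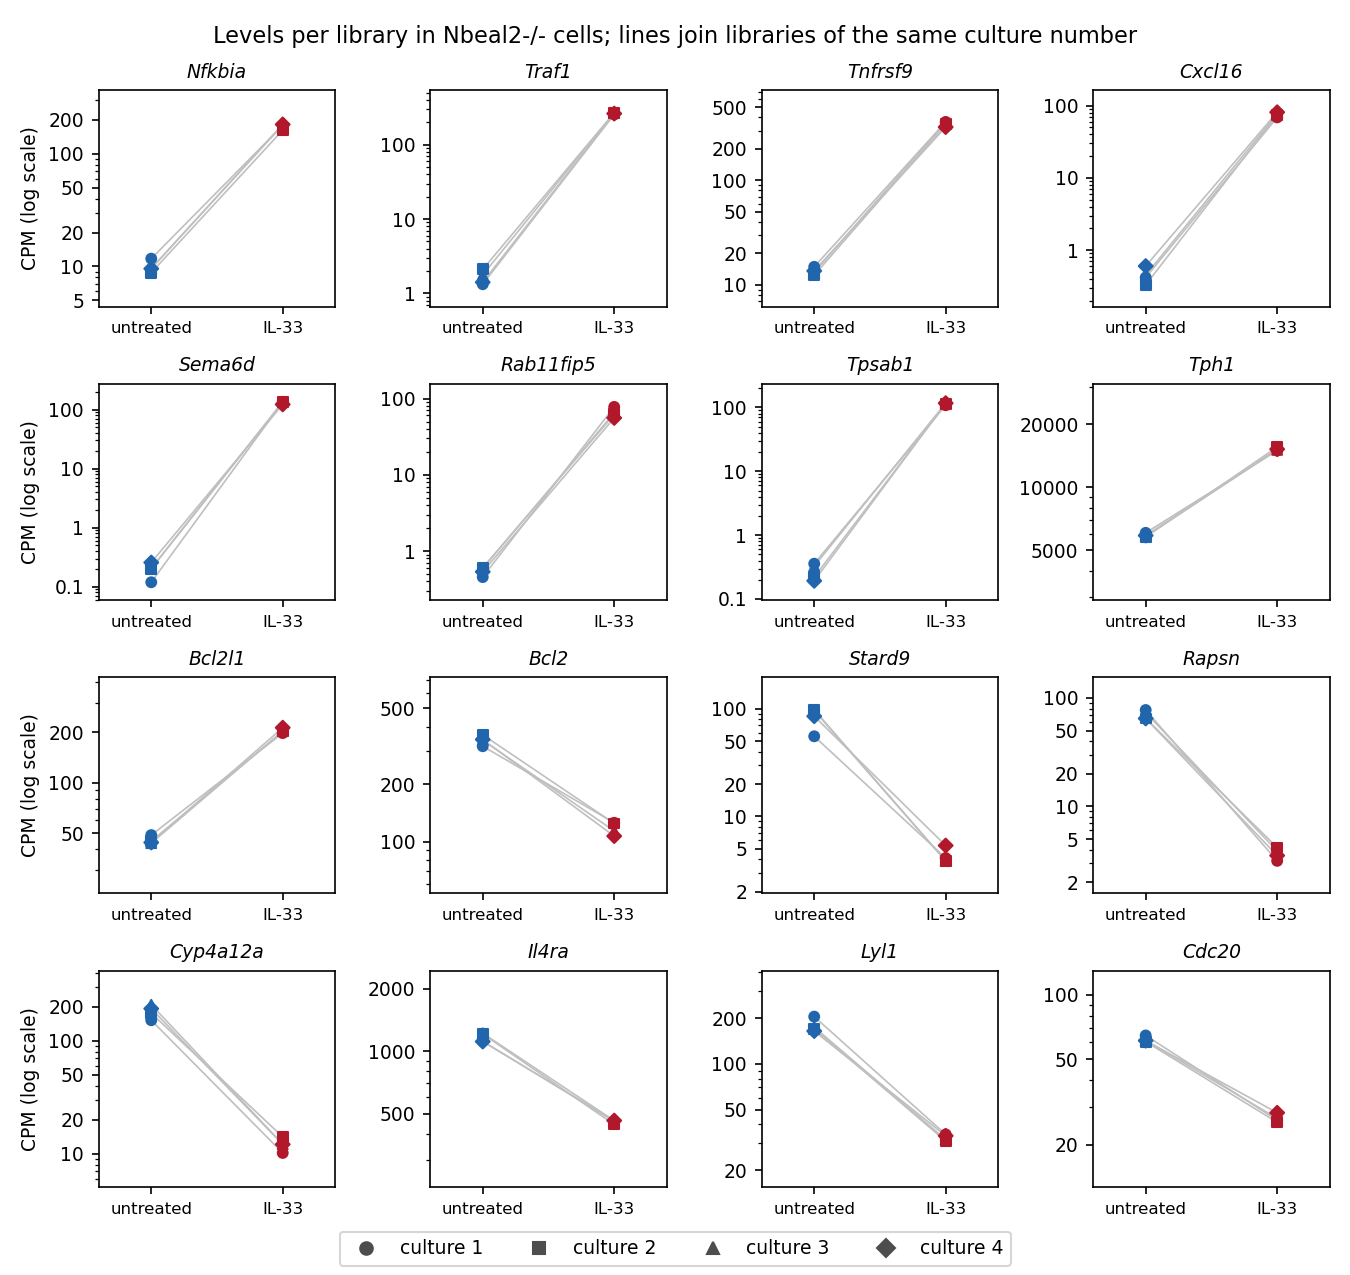
Level in CPM (log axis) of 16 genes in each of the 4 untreated and 4 IL-33 Nbeal2-/- libraries, 1 point per library. Lines join libraries of the same culture number. Traf1 lies at 1.33–2.10 CPM without and 255–267 CPM with IL-33, while Bcl2, Rapsn and Il4ra move down and no panel shows overlap.

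Of 16 TNF receptor genes tested 10 rose and 4 fell, against 27.2% and 27.9% of all genes tested. Their median log2 fold change was 0.54. Tnfrsf9, known as 4-1BB, was at 14.8, 12.3, 13.1 and 13.6 CPM and then 363, 344, 361 and 324 CPM (log2 fold change 4.69 with an SE of 0.10, adjusted p = 4.22e-16). Tnfrsf8, known as CD30, rose from 0.265–0.734 to 52.3–85.3 CPM (log2 fold change 6.97 with an SE of 0.23, adjusted p = 1.59e-13) and Tnfrsf1b, known as TNFR2, from 17.1–19.7 to 66.8–74.1 CPM. Ngfr, the low-affinity nerve growth factor receptor p75, was at 9.82, 13.2, 13.9 and 13.1 CPM and fell to 0.634, 0.334, 0.714 and 0.641 CPM (log2 fold change -4.42 with an SE of 0.21, adjusted p = 1.14e-11). Cytokine receptors went both ways, with 11 of 27 higher and 11 lower, against 27.2% and 27.9% of all genes tested. Il2ra, the alpha chain of the IL-2 receptor, rose from 9.02–15.2 to 109.9–137 CPM (log2 fold change 3.28 with an SE of 0.19, adjusted p = 7.82e-10) and Il27ra by 1.64, while Il4ra, which senses IL-4 and IL-13, fell from 1115–1223 to 444–464 CPM (log2 fold change -1.35 with an SE of 0.05, adjusted p = 3.34e-13).

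The histamine receptors moved in opposite directions. Hrh1 was at 0.0397, 0.0915, 0.122 and 0.107 CPM and reached 9.62, 8.78, 9.28 and 8.33 CPM (log2 fold change 6.61 with an SE of 0.21, adjusted p = 4.98e-14). Hrh4 fell from 26.5, 29.8, 32.6 and 29.5 to 8.29, 7.16, 8.40 and 7.07 CPM (log2 fold change -1.94 with an SE of 0.11, adjusted p = 1.78e-10). The ATP-gated channel P2rx1 rose from 82.9–84.8 to 218–246 CPM, by more than in WT (difference 0.53, SE 0.06, adjusted p = 0.000294).

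Genes on the list of inhibitory receptors mostly fell, with 13 of 21 lower and 6 higher, against 27.9% and 27.2% of all genes tested. Cd300lf fell from 118–137 to 32.8–36.3 CPM (log2 fold change -1.94 with an SE of 0.06, adjusted p = 5.77e-14). Against that direction, Milr1, known as Allergin-1, rose from 30.7–37.6 to 186–206 CPM (log2 fold change 2.53 with an SE of 0.05, adjusted p = 2.8e-16), Cd72 by 3.85 and Pilra by 2.97 on the log2 scale. Among costimulators and checkpoint ligands, Pdcd1lg2, known as PD-L2, rose by 3.02 and Icosl, the ligand of ICOS, fell from 11.9–16.0 to 2.46–2.83 CPM. Cd276, known as B7-H3, was at 27.0, 30.7, 32.7 and 27.0 CPM and fell to 3.25, 3.13, 2.74 and 3.50 CPM (log2 fold change -3.21 with an SE of 0.15, adjusted p = 7.66e-12). Tigit, a receptor better known in T cells, went from 0–0.0428 to 2.66–3.44 CPM (log2 fold change 7.04 with an SE of 0.37, adjusted p = 2.84e-11).

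Fcer1a did not pass the test, at 5226 and 5327 CPM (log2 fold change 0.03, adjusted p = 0.709). Downstream of the IgE receptor, the lipid phosphatase gene Inpp5d, known as SHIP1, fell from 582–727 to 338–364 CPM (log2 fold change -0.90 with an SE of 0.07, adjusted p = 4.61e-09) and the kinase gene Btk fell by 0.69 on the log2 scale, while the Src-family kinase gene Lyn rose by 0.47. Adhesion molecule Icam1 rose from 15.8–17.8 to 59.8–65.0 CPM (log2 fold change 1.86 with an SE of 0.09, adjusted p = 7.91e-12) and the tetraspanin Cd82 from 36.2–43.0 to 239–257 CPM (log2 fold change 2.69 with an SE of 0.06, adjusted p = 3.14e-16). Tlr4, the endotoxin receptor, fell by 1.56 and the scavenger receptor Marco rose by 5.59, to only 3.28–4.61 CPM. Among channels, the mechanically gated Piezo1 rose from 40.1–49.5 to 206–226 CPM (log2 fold change 2.25 with an SE of 0.06, adjusted p = 7.3e-15) and the calcium release channel Itpr3 by 3.07, while Scn4b, a sodium channel subunit, had 1 untreated count and 3.03–7.65 CPM with IL-33 (count ratio 1052, with a 95% counting interval of 188 to 41598) and the potassium channel Kcnj2 fell from 2.45–3.02 to 0–0.128 CPM (log2 fold change -5.09 with an SE of 0.32, adjusted p = 3.27e-10).

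Most class II antigen presentation genes rose, several of them from very low levels. Cd74, the invariant chain, was at 1.82, 0.585, 0.388 and 0.556 CPM without and 1087, 858, 859 and 845 CPM with IL-33 (log2 fold change 10.08 with an SE of 0.33, adjusted p = 8.39e-13). Ciita, the master regulator of class II genes, was at 0.674, 0.604, 0.326 and 0.385 and then 28.8, 24.0, 22.4 and 20.5 CPM (log2 fold change 5.57 with an SE of 0.24, adjusted p = 3.12e-12). Of 12 list members 8 rose, all by more than 2-fold, and 2 fell (H2-Oa and Ctss, named after their values were seen), at a median of 2.77. The summed level of the list was 128, 94.9, 95.8 and 90.5 CPM in untreated cultures 1 to 4 and 1928, 1538, 1502 and 1456 CPM with IL-33, with culture 1 highest in each group. Dendritic cell markers other than the class II genes, Cd74 and Ciita stayed at or under 5.65 CPM in every library. Among these Ccr7 was at 1.12 to 1.84 CPM with IL-33 and at most 0.0192 without, while Itgax, at 1.53 to 5.65 CPM without IL-33, was at 0.467 to 1.96 with it. Their part in the class II result was not tested.

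Class I presentation rose less steeply, with a median of 0.42. Its 18 genes were 10 higher and 4 lower, against 27.2% and 27.9% of all genes tested. Tapbp, the peptide-loading protein tapasin, rose from 78.7–82.8 to 218–235 CPM (log2 fold change 1.51 with an SE of 0.04, adjusted p = 2.95e-15), by more than in WT (difference 0.44, SE 0.05, adjusted p = 0.00038), and H2-K1 from 476–536 to 1035–1123 CPM. The interferon response list did not follow, at a median of -0.18. In it 6 of 22 were higher and 10 lower, where 27.2% and 27.9% of all genes tested were. Within this list, guanylate-binding protein genes split. Gbp3 rose from 1.95–2.12 to 35.4–36.1 CPM and Gbp6 fell from 2.52–4.85 to 0.164–0.385 CPM, with the reservation that reads of such similar genes may be shared.

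Granule proteases rose as a list, with 15 of 19 tested higher and 3 lower, a median of 1.82 and the largest folds among members that were low without IL-33. Tpsb2, encoding tryptase beta 2 of the mast cell granule, was at 3993, 2262, 3502 and 2785 CPM and then 12120, 9018, 11920 and 11280 CPM (log2 fold change 1.82 with an SE of 0.14, adjusted p = 5.47e-09). Tpsab1, encoding a second tryptase, was nearly absent at 0.357, 0.220, 0.326 and 0.193 CPM and reached 108, 114, 117 and 117 CPM (log2 fold change 8.69 with an SE of 0.18, adjusted p = 1.92e-16). Mcpt1, a mucosal-type chymase, went from 0.0183–0.0642 to 21.0–28.4 CPM (log2 fold change 9.58 with an SE of 0.23, adjusted p = 1.15e-15), Mcpt2 from 3.93–4.90 to 63.4–74.0 CPM and Mcpt4, a connective tissue-type chymase, from 2.21–3.41 to 51.4–59.9 CPM. Gzmc, encoding granzyme C, rose by 4.58 on the log2 scale. Cma1 rose by 0.66 and Cpa3 fell by 0.34, from 17800–20370 to 14530–16000 CPM. Reads of near-identical proteases may be split between them.

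The carrier of these proteases moved with them. Srgn, the serglycin core protein, was at 1991–2627 CPM and 4379–4572 CPM (log2 fold change 1.00 with an SE of 0.07, adjusted p = 1.81e-09). Of the sugar chain enzymes, the sulfotransferase Hs3st1 rose by 0.81, while Xylt1, which starts the chains, fell by 1.26. Tph1, which makes serotonin from tryptophan, rose from 6068, 5799, 5834 and 5892 to 14990, 15580, 15100 and 15220 CPM (log2 fold change 1.37 with an SE of 0.04, adjusted p = 4.92e-14). Slc18a2, the transporter that loads amines into granules, fell from 1548, 1615, 1569 and 1611 to 873, 816, 814 and 766 CPM (log2 fold change -0.96 with an SE of 0.05, adjusted p = 3.01e-11). Gch1, which makes the cofactor of Tph1, fell by 0.98, and Slc6a4, the serotonin uptake transporter, rose by 2.49 to 4.49–5.39 CPM.

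Of 13 lipid mediator genes tested 6 fell and 3 rose, where 27.9% of all genes tested fell and 27.2% rose. Ltc4s, the leukotriene C4 synthase, fell from 25.8–34.1 to 7.61–9.09 CPM (log2 fold change -1.75 with an SE of 0.09, adjusted p = 1.94e-11) and its upstream partner Alox5ap from 327–403 to 179–206 CPM. Ephx2, encoding soluble epoxide hydrolase, was at 0.734, 0.768, 0.938 and 0.492 CPM and rose to 70.2, 92.1, 91.8 and 71.8 CPM (log2 fold change 6.78 with an SE of 0.28, adjusted p = 8.02e-12). The inducible prostaglandin synthase Ptgs2 rose by 5.96 but reached only 3.88–5.62 CPM.

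Genes of granule biogenesis and exocytosis, a process for which platelets need Nbeal2, were 7 of 25 higher and 10 lower, where 27.2% and 27.9% of all genes tested were. Only 4 were higher without the IL-33 library of culture 1, and 4 without that of culture 2. The SNARE gene Stx11 rose from 12.8–14.1 to 42.2–45.6 CPM (log2 fold change 1.73 with an SE of 0.06, adjusted p = 3.25e-13). Nbea, a BEACH-domain paralogue of Nbeal2, fell from 23.6, 31.4, 23.7 and 26.2 to 7.20, 8.60, 7.65 and 7.39 CPM (log2 fold change -1.77 with an SE of 0.09, adjusted p = 1.09e-11), and Rab32, a small GTPase of lysosome-related organelles, had a log2 fold change of -1.04. Rab11fip5, which links Rab11 to recycling vesicles, rose from 0.456, 0.604, 0.592 and 0.535 to 77.8, 62.2, 64.9 and 55.7 CPM (log2 fold change 6.89 with an SE of 0.16, adjusted p = 6.2e-16).

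ER folding and early secretion rose almost as a whole. Of 24 genes of ER folding and the unfolded protein response 23 rose and 1 fell, at a median of 1.01, and of 30 genes of ER translocation and early secretion 29 rose and 0 fell, at a median of 0.61. The summed level of the folding list was 8390.4, 8148, 7999 and 8241 CPM without and 14701, 14715, 14431 and 14140.4 CPM with IL-33. The calcium-binding chaperone Calr rose from 1394–1577 to 3418–3664 CPM (log2 fold change 1.27 with an SE of 0.05, adjusted p = 7.71e-13), Hsp90b1 by 1.03 and the co-chaperone Dnajb9 by 1.21. Sec61a1, the channel of the translocon, rose by 0.83 and Sec23b, a coat protein of vesicles leaving the ER, by 1.00. On the ATF4 list 10 of 23 rose and 6 fell, against 27.2% and 27.9% of all genes tested. The asparagine synthetase Asns was at 18.8–21.6 and then 48.3–54.7 CPM (log2 fold change 1.31 with an SE of 0.07, adjusted p = 1e-10).

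Sterol and fatty acid synthesis also rose, with 27 of 31 genes higher and 0 lower at a median of 0.94. Insig1, which restrains sterol regulation, was at 116, 109, 118 and 107 CPM and then 330.3, 279, 306 and 261 CPM (log2 fold change 1.39 with an SE of 0.07, adjusted p = 4.88e-11), with no overlap, and Hsd17b7, an enzyme of cholesterol synthesis, rose by 1.68 on the log2 scale. The sterol element TCACNCCAC was in 1 of the 20 list promoters with a window (5.0%) and in 1.35% of tested genes with one. Moving the other way, Soat1, which esterifies cholesterol, fell from 93.6–105 to 47.1–51.4 CPM and Cpt1a, which brings fatty acids into mitochondria, from 18.7, 25.2, 24.8 and 25.4 to 5.54, 4.62, 4.68 and 4.68 CPM (log2 fold change -2.26 with an SE of 0.12, adjusted p = 6.54e-11).

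Lysosome and V-ATPase genes were 18 of 29 higher and 5 lower, against 27.2% and 27.9% of all genes tested. Their changes were small, with a median of 0.21. The proton pump subunit Atp6v0a1 rose from 44.4–47.1 to 152–165 CPM (log2 fold change 1.77 with an SE of 0.04, adjusted p = 8.26e-16), more than in WT (difference 0.51, SE 0.06, adjusted p = 0.00022), and Atp6v1a by 0.87. Of 21 iron, heme and redox genes tested 14 rose and 1 fell, against 27.2% and 27.9% of all genes tested. Nqo1, a quinone reductase, was at 71.5, 84.2, 59.6 and 66.2 CPM and then 322, 375, 321 and 348 CPM (log2 fold change 2.28 with an SE of 0.11, adjusted p = 1.21e-11), Hmox1, the heme oxygenase, rose by 1.65 and Srxn1 by 1.27, and Ftl1, the ferritin light chain, by 0.60. Nos2, the inducible nitric oxide synthase, reached only 1.75–3.07 CPM from 5 counts over the untreated group.

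Of 24 glycolysis and hypoxia genes 17 rose, against 27.2% of all genes tested. Their median was 0.48 against 0.18 in WT, where 6 rose. Whether the response differed was called for 1 of them. Hexokinase Hk2 rose by 1.01 and the ER oxidase Ero1l, a hypoxia-induced gene, from 588–642 to 989–1302 CPM. For cytosolic ribosomal proteins 14 of 30 fell and 0 rose, at a median of -0.18, among them Rps4x with a log2 fold change of -0.41. Only 5 fell without the untreated library of culture 1, whose summed level of the list was 27358 CPM against 20894 to 22198 in the other untreated libraries. Ribosome biogenesis genes, such as Wdr12 (log2 fold change 0.84), were 18 of 30 higher with TMM and 9 of 30 on library totals. Impdh1, the first step of guanine nucleotide synthesis, rose by 0.96. Myc, which drives ribosome biogenesis in many cells, fell from 244–301 to 186–204 CPM (log2 fold change -0.46 with an SE of 0.05, adjusted p = 5.38e-07) and moved less in WT (-0.05; difference -0.41, SE 0.07, adjusted p = 0.00358).

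**Figure D3:**
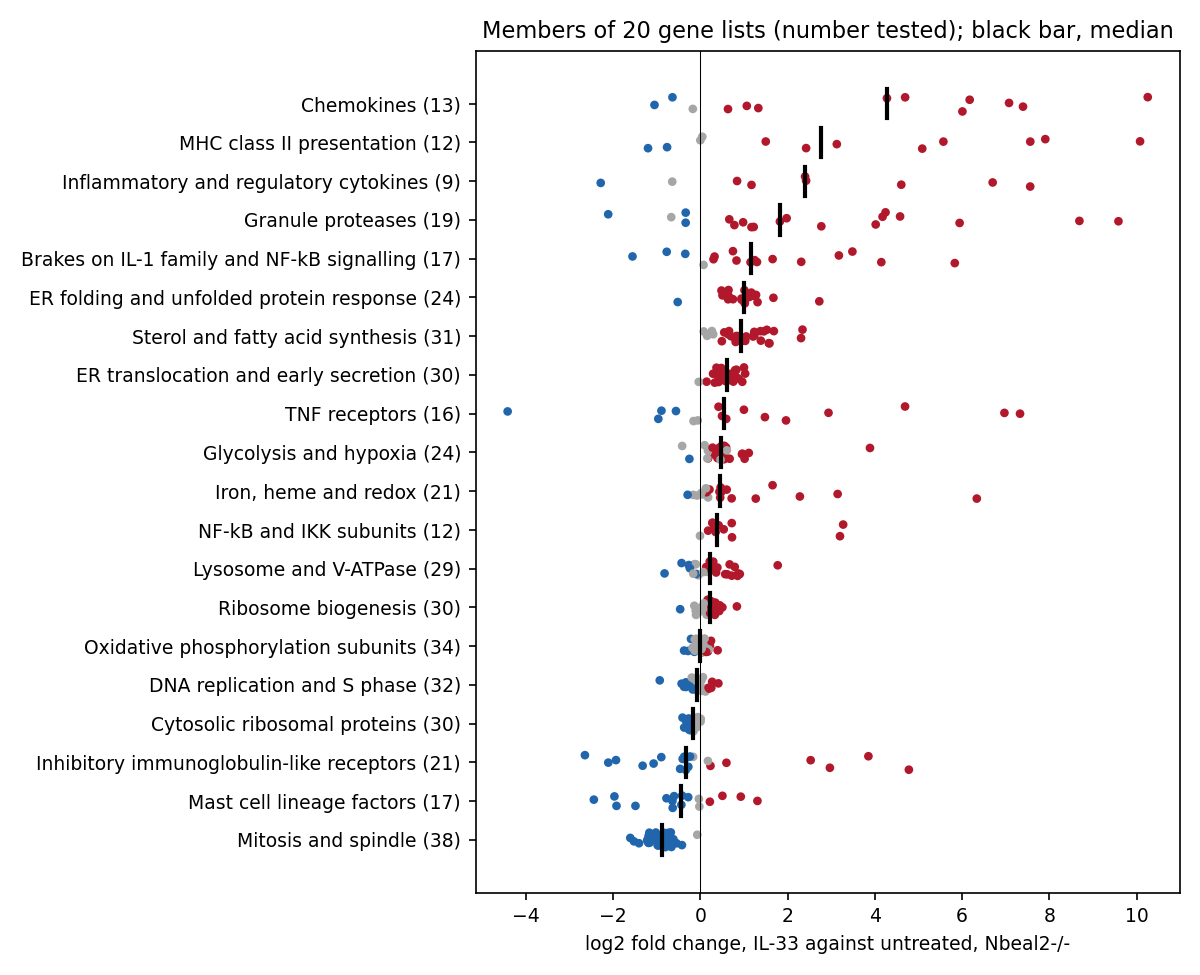
Log2 fold change of IL-33 against untreated in Nbeal2-/- cells for the tested members of 20 gene lists, 1 point per gene, with the median of each list marked. Of the mitosis genes 37 of 38 fell, while ER folding and sterol synthesis lie almost entirely above it.

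Of the 52 gene lists, those of mitosis and DNA replication held the most members whose response differed from WT. Of 38 genes of mitosis and the spindle 37 fell with IL-33 and 0 rose, at a median log2 fold change of -0.89 against -0.29 in WT, where 29 fell. The fall was larger in Nbeal2-/- than in WT, by the test of the difference, for 33 of the 38. Over all genes tested the response was lower in Nbeal2-/- for 395 (2.55%) and higher for 311 (2.01%). The count of lower responses was 258 without Nbeal2-/- IL-33 culture 1, 254 without WT IL-33 culture 4 and 627 without untreated WT culture 1. The count of higher responses was 547 without untreated WT culture 1 and 180 to 192 without any 1 of untreated Nbeal2-/- culture 4, Nbeal2-/- IL-33 culture 1 or 3, untreated WT culture 2 or WT IL-33 culture 4. Over the alternatives run, the 33 mitosis genes became 25 to 36. The summed level of the list was 3525, 3797, 3780.4 and 3814 CPM in the untreated libraries and 1831, 1951, 1880.2 and 1901 CPM with IL-33. In WT it was 2585 to 3257 CPM in untreated and 1959 to 2434 CPM in IL-33 libraries, so every Nbeal2-/- library lay above every WT library without IL-33 and below every WT library with it.

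Promoters of 3 of the mitotic genes are shown for the CHR element, through which such genes are repressed early in the cycle in other cells. The windows and strand are as above, and the capitals mark TTTGAA or TTCGAA on either strand. 
Cdc20, chr4:118437294-118437593, minus strand: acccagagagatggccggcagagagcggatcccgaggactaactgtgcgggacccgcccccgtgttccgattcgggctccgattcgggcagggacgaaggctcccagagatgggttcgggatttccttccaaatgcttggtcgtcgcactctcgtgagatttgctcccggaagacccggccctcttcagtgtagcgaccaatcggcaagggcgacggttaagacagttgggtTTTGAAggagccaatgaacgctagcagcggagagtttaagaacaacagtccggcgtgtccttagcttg
Cdc25b, chr2:131186698-131186997, plus strand: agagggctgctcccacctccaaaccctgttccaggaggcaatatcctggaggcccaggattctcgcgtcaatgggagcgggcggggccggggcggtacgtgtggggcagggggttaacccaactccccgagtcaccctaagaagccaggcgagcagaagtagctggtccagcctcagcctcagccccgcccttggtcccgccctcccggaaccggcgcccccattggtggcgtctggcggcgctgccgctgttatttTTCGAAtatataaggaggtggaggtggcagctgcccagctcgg
Kif23, chr9:61946750-61947049, minus strand: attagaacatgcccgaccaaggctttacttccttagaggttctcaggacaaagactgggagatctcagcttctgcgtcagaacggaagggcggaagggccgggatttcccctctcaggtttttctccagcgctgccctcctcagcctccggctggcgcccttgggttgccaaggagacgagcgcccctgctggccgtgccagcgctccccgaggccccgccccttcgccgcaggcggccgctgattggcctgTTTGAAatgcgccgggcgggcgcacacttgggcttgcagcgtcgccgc
The match began at -18 from the start in Cdc20, at +8 in Cdc25b and at +3 in Kif23. It stood in windows of 24 of the 31 mitosis genes with a window (77.4%), in 6 of 27 replication genes (22.2%) and in 16.9% of tested genes with one.

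Cdc20, which activates the APC/C ubiquitin ligase, was at 64.6, 60.5, 61.3 and 61.1 CPM and then 26.1, 25.5, 26.6 and 28.2 CPM (log2 fold change -1.22 with an SE of 0.08, adjusted p = 5.86e-10), a larger fall than in WT (difference -0.70, SE 0.11, adjusted p = 0.0024). Cdc25b, a phosphatase that starts mitosis, fell from 38.6–39.9 to 12.1–13.9 CPM (log2 fold change -1.61 with an SE of 0.10, adjusted p = 2.6e-10; WT -0.90). Kif23, a kinesin of the dividing midzone, had a log2 fold change of -1.21, against -0.99 in WT. Its difference of -0.22 missed the threshold (adjusted p = 0.147). The spindle protein Tpx2 fell from 155–163 to 79.9–82.3 CPM (log2 fold change -0.98 with an SE of 0.06, adjusted p = 2.66e-10; WT -0.39). Cdkn2c, an inhibitor of CDK4 and CDK6, fell by 1.48 on the log2 scale.

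DNA replication genes moved little in Nbeal2-/-, with 6 of 32 higher and 11 lower, against 27.2% and 27.9% of all genes tested. Their median was -0.08. On library totals without TMM 1 was higher and 17 lower. In WT 25 rose at a median of 0.36, and the response was lower in Nbeal2-/- for 24 of the 32. Their summed level was 4005, 4032, 3899 and 4203 CPM and 3498, 3698, 3617 and 3783 CPM in Nbeal2-/-, but 3113 to 3646 and 3866 to 4286 CPM in WT, again with every untreated Nbeal2-/- library above and every IL-33 one below those of WT. Orc1, of the origin recognition complex, rose by 0.41 against 0.90 in WT. The polymerase clamp loader gene Rfc5 fell by 0.33 and was at 0.08 in WT, and cyclin E2, Ccne2, fell by 0.43. E2f2 had a log2 fold change of -0.93 against -0.25 in WT, and Tk1, thymidine kinase, fell from 52.2–61.1 to 19.5–22.2 CPM (log2 fold change -1.40 with an SE of 0.10, adjusted p = 1.75e-09; WT -0.63). Chaf1a, a chromatin assembly factor, fell by 0.17 in Nbeal2-/- and rose by 0.31 in WT. The stress-response pair Gadd45b and Gadd45g diverged, with Gadd45b at 11.8–15.7 and then 68.2–78.1 CPM (log2 fold change 2.51 with an SE of 0.09, adjusted p = 1.18e-13) and Gadd45g at 79.8–109 and then 15.6–17.3 CPM (log2 fold change -2.48 with an SE of 0.10, adjusted p = 7.57e-13).

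**Figure D4:**
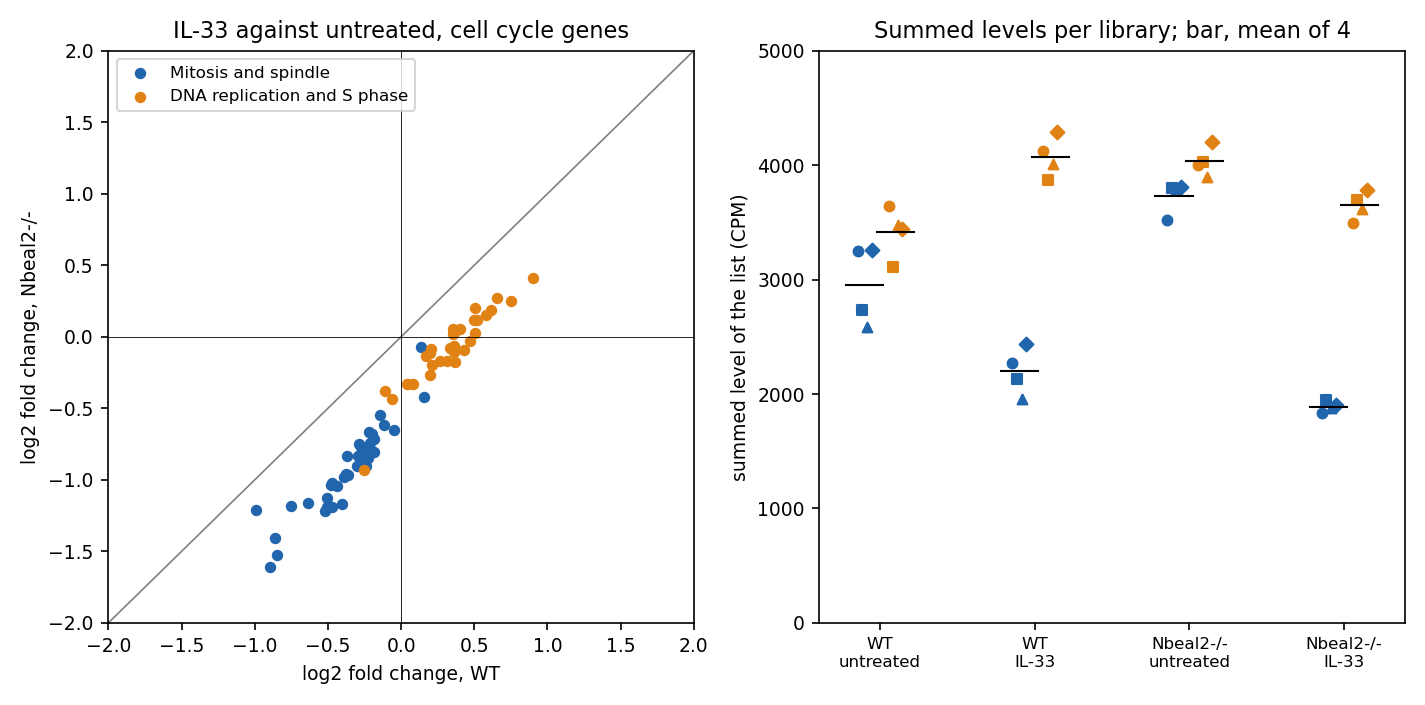
Left, log2 fold change with IL-33 in WT (horizontal axis) and Nbeal2-/- (vertical axis) for mitosis and replication genes; right, the summed CPM of each list per library in the 4 groups. The diagonal marks equal responses and all points lie below it, with the difference called for 33 of 38 mitosis and 24 of 32 replication genes.

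Transcription factors included some of the steepest rises. Irf4, a factor of lymphocyte differentiation, had 9 counts over the untreated libraries and 27.7, 36.9, 40.6 and 39.1 CPM with IL-33 (log2 fold change 9.57 with an SE of 0.36, adjusted p = 7.68e-13). Irf5, a factor of Toll-like receptor signalling, was at 4.36, 4.96, 5.65 and 4.75 CPM and then 54.4, 57.1, 58.2 and 60.1 CPM (log2 fold change 3.54 with an SE of 0.09, adjusted p = 2.87e-15), more than in WT (difference 0.54, SE 0.12, adjusted p = 0.0177). The early-response genes Fosl1, Maff and Atf3 rose by 4.00, 3.16 and 5.75, but to means of only 4.71, 6.04 and 2.54 CPM. Of 15 DUSP and Sprouty feedback genes 4 rose and 5 fell, close to the 27.2% and 27.9% of all genes tested, among them Dusp6, an ERK phosphatase, from 64.6–71.8 to 26.3–28.9 CPM and Dusp16, a JNK phosphatase, upward by 1.33. Dusp8, another JNK phosphatase, had 1 untreated count and 3.21–3.79 CPM with IL-33 (count ratio 718, with a 95% counting interval of 128 to 28395). Egr2, an early growth response factor, rose from 6.21–8.45 to 26.2–33.1 CPM (log2 fold change 1.96 with an SE of 0.20, adjusted p = 3.91e-07). The STAT genes Stat4 and Stat6 rose by 0.79 and 0.55.

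Of 17 mast cell lineage factors 11 fell and 4 rose, against 27.9% and 27.2% of all genes tested, at a median of -0.44. Lyl1, a basic helix-loop-helix factor, was at 204, 170, 174 and 164 CPM and then 34.4, 31.1, 31.8 and 33.6 CPM (log2 fold change -2.44 with an SE of 0.08, adjusted p = 3.39e-14), and Zfpm1, the GATA cofactor FOG1, fell by 1.92. Myb, which marks progenitors, rose from 136–146 to 329–368 CPM (log2 fold change 1.31 with an SE of 0.04, adjusted p = 9.31e-14). Tfe3, related to Mitf, rose by 0.93. Jak2, the kinase of the IL-3 receptor, rose from 117–142 to 593–620.3 CPM (higher in 4 of 4 cultures) and its inhibitor Socs1 fell from 213–292 to 106–121 CPM (log2 fold change -1.06 with an SE of 0.08, adjusted p = 2.82e-09). The ligand-activated receptor Ahr rose by 1.43 while the retinoic acid receptor Rara fell by 1.52, and the 5-methylcytosine oxidases split, with log2 fold changes of 1.45 for Tet2 and -2.22 for Tet1.

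Survival genes of the BCL2 family moved in opposite directions. Bcl2l1, encoding BCL-XL, was at 48.6, 44.7, 43.5 and 43.9 CPM and then 198, 203, 204 and 214 CPM (log2 fold change 2.18 with an SE of 0.05, adjusted p = 6.2e-16). Bcl2 fell from 316, 363, 340.5 and 343 to 125, 124, 114 and 107 CPM (log2 fold change -1.53 with an SE of 0.06, adjusted p = 4.93e-13). Of the pro-death members, Bid fell by 1.14 and Bmf rose by 1.23 on the log2 scale. Over the list of BCL2 family and caspase genes 9 of 21 tested rose and 7 fell, where 27.2% and 27.9% of all genes tested did.

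The steepest falls included genes better known from other tissues. Nrgn, a calmodulin-binding protein of neurons, fell from 7.56, 5.38, 6.71 and 6.46 to 0, 0.0513, 0.0571 and 0.0986 CPM (log2 fold change -6.98 with an SE of 0.38, adjusted p = 6.08e-11). Fat3, a giant cadherin, and Cdh1, E-cadherin, fell from 6.53–14.2 and 4.01–6.70 to 0.180–0.567 and 0.200–0.394 CPM. Mamdc2 fell from 27.6–37.0 to 0.943–1.41 CPM, Stard9, a kinesin, from 55.5–97.8 to 3.86–5.37 CPM and Rapsn, which clusters acetylcholine receptors at the neuromuscular junction, from 77.5, 64.8, 73.3 and 64.7 to 3.15, 4.18, 3.88 and 3.52 CPM (log2 fold change -4.26 with an SE of 0.12, adjusted p = 1.32e-14). Cyp4a12a and Cyp4a12b, fatty acid hydroxylases of near-identical sequence, had log2 fold changes of -3.92 and -4.17. Tgm2, a transglutaminase, fell from 18.1–22.5 to 1.18–1.43 CPM, by less than in WT (log2 fold change -3.95 with an SE of 0.16, adjusted p = 7.67e-13; difference 1.12, SE 0.22, adjusted p = 0.00786).

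Over all genes tested the difference from WT was called for 706, of which 58 differed by more than 2-fold. Ccl9, a macrophage inflammatory protein, was at 2.88, 6.04, 3.75 and 3.68 CPM without and 75.2, 94.7, 83.1 and 65.8 CPM with IL-33 in Nbeal2-/-, with a log2 fold change of 4.28 against 1.71 in WT (difference 2.57, SE 0.21, adjusted p = 9.2e-06). Cxcl16 rose more in Nbeal2-/- (difference 1.65, SE 0.26, adjusted p = 0.00244), as did Ccl3 (difference 0.99, SE 0.19, adjusted p = 0.00665) and Rab11fip5 (difference 1.76, SE 0.22, adjusted p = 0.000523). Untreated means were lower in Nbeal2-/- than in WT for Ccl9 (4.09 against 37.6 CPM), Ccl3 (1.94 against 6.26) and Cxcl16 (0.4485 against 1.13). With IL-33 they were 79.7 against 122.5 CPM for Ccl9, 50.1 against 81.25 for Ccl3 and 75.15 against 61.8 for Cxcl16. Tpsab1 and Sema6d also rose more (difference 2.23, SE 0.27, adjusted p = 0.000351 for Tpsab1, and difference 1.72, SE 0.20, adjusted p = 0.00022 for Sema6d), but under limma on log2(RPM + 1), which shrinks low levels, the differences were 0.43 (adjusted p = 0.103) for Tpsab1 and 0.19 (adjusted p = 0.224) for Sema6d. Tpsb2 rose by 1.82 against 0.93 in WT (difference 0.89, SE 0.19, adjusted p = 0.0113).

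Among granule protease genes on chromosome 14, 3 rose less in Nbeal2-/- than in WT. Mcpt2 rose by 4.02 in Nbeal2-/- and by 6.26 in WT (difference -2.24, SE 0.17, adjusted p = 5.48e-06), Mcpt4 by 4.24 and 5.99 (difference -1.74, SE 0.27, adjusted p = 0.0024) and Mcpt8, known from basophils, by 2.77 and 4.13 (difference -1.36, SE 0.29, adjusted p = 0.0151). Gzmc, on the same chromosome, rose more (difference 0.84, SE 0.22, adjusted p = 0.0324), and the differences of Cma1 (difference 0.08, SE 0.10, adjusted p = 0.721) and Mcpt1 (difference -0.54, SE 0.95, adjusted p = 0.801) missed the threshold. The histone gene H2ac13 had a log2 fold change of -1.23 in Nbeal2-/- and -0.05 in WT (difference -1.18, SE 0.22, adjusted p = 0.00565). Surface genes Cd72, Icam1 and Cd82 rose more in Nbeal2-/-, with differences of 0.82, 0.61 and 0.49.

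There were 52 genes called in opposite directions in the genotypes, 13 of them higher in Nbeal2-/- and 39 lower, and for 48 the difference was called. Tubb5, a beta tubulin, was at 1297, 1212, 1229 and 1266 CPM and 1061, 1081, 1093 and 1125 CPM in Nbeal2-/- (log2 fold change -0.20 with an SE of 0.05, adjusted p = 0.00192) and rose by 0.32 in WT. Tedc1, a centriole protein, fell by 0.26 and rose by 0.22 in WT. Acss2, which makes acetyl-CoA from acetate, rose by 0.42 and fell by 0.14 in WT, and Snap47, a SNARE protein, rose by 0.28 and fell by 0.31 in WT. Fabp5, a fatty acid-binding protein, was at 17.6–21.0 and 16.1–17.9 CPM, with overlap, in Nbeal2-/- (log2 fold change -0.16, adjusted p = 0.0467, and 0.0755 with the replicate block) and rose by 0.60 in WT (difference -0.76, SE 0.10, adjusted p = 0.000523). Of the 8524 genes called in Nbeal2-/-, 1622 were not called in WT, and for 171 of these the difference itself was called.

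**Figure D5:**
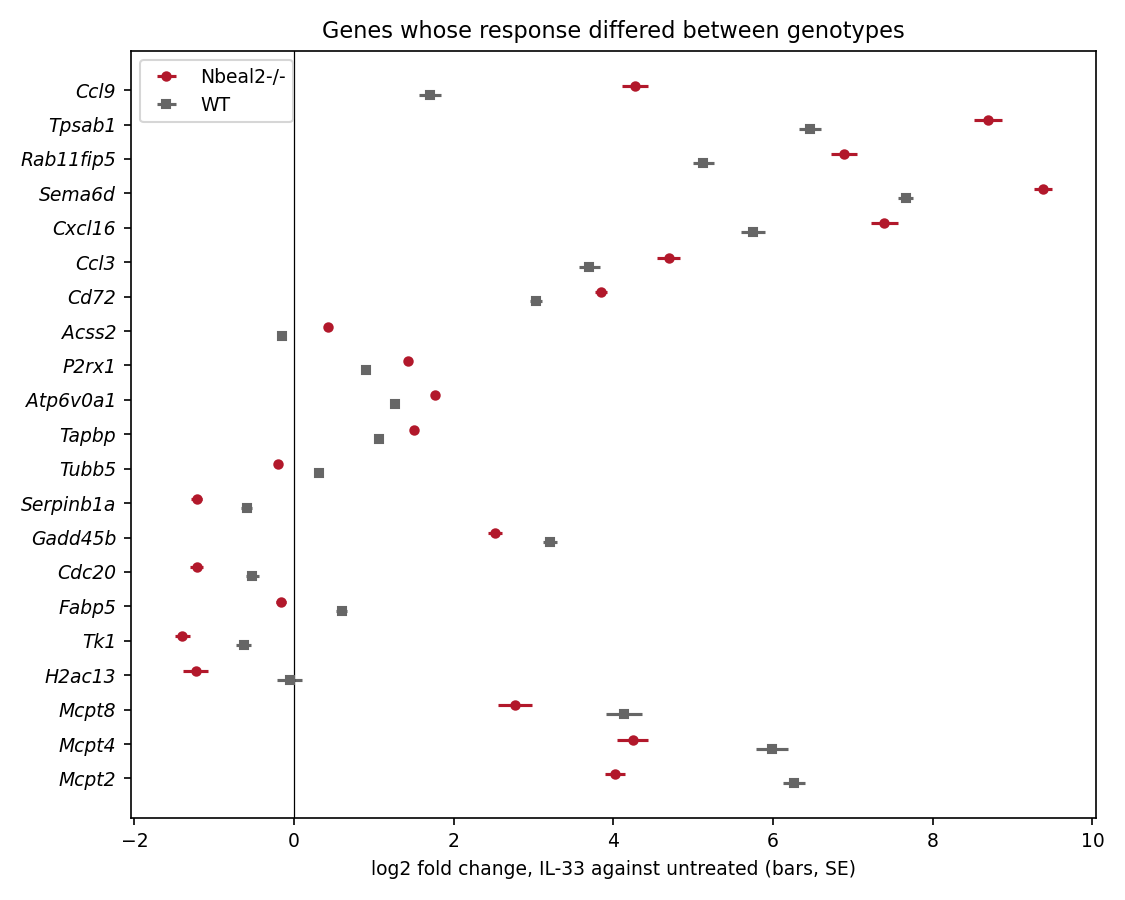
Log2 fold change with IL-33 in Nbeal2-/- and WT cells for 21 genes, each with its standard error from the edgeR fit (n = 4 libraries per group). Ccl9 stands at 4.28 in Nbeal2-/- and 1.71 in WT, and Mcpt2 at 4.02 and 6.26.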

How the data were processed

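Per the labels' protocols, Qiazol was used to isolate total RNA, from which directional poly(A) libraries were made. Per the submitters' processing notes, bcl2fastq 2.20.0.422, featureCounts 1.6.5 and build GRCm38 were used. The aligner, annotation release and strand setting are not stated in the sources used here, so antisense and overlapping genes are uncertain, as are near-identical families (mast cell proteases, tryptases, granzymes, guanylate-binding proteins, MHC class I genes, globins, histones, Cyp4a12 genes). The authors deposited raw counts per gene, which entered the tests. RPM values in the deposited table matched the counts after scaling to column totals (largest difference 4.91e-11). The deposited RPKM values, divided by the authors' gene length, were used only to rank abundance.

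Of 55487 genes, 29066 had no count, 55227 identifiers matched GENCODE M21 and 15470 passed filterByExpr over the 4 groups. Counts were scaled by TMM (factors 0.951 to 1.06) and fitted as 4 group means over 16 libraries by the robust quasi-likelihood method of edgeR 4.0.16 in R 4.3.3, with a common biological coefficient of variation of 9.56%, and the method was tested on simulated data. limma 3.58.1 and DESeq2 1.42.0 served as alternatives, and Python 3.11.15 with SciPy 1.17.1 and Matplotlib 3.10.9 for the rest. Gene levels are CPM with TMM factors; summed list and marker levels are CPM of library totals. The threshold was an adjusted p of 0.05. Whether replicates came from different animals is not in the labels. Xist and Y-linked levels differed between the Nbeal2-/- cultures, and Xist kept the same order of cultures in both conditions. The Nbeal2-/- libraries are therefore not all repeats of a single culture. The p-values still reflect the spread of these libraries only. For WT cultures, where these levels were not examined, that spread may be technical. Same-numbered untreated and IL-33 libraries deviated together (r = 0.441, 0.478, 0.370 and 0.274 over 10353 genes; other pairs -0.39 to 0.18), so the label numbers were taken to pair them. The adjusted p-values of the main fit did not use this pairing, and the replicate block, which did, was run as an alternative. It called 8693 genes in Nbeal2-/- against 8524, with 8284 shared, and 932 differences from WT against 706, with 633 shared.

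Genes and lists were chosen with earlier results of these data known. Named genes are Nbeal2, the 10 largest rises and falls with no overlap and 5 CPM in the higher group, the called members of smallest p in each list (at most 4), the 6 largest differences from WT in each direction, the 6 genes of opposite calls with the smallest p and the 10 most abundant. Some of them are not reported here.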

Additional observations from a re-analysis of the deposited data

Results flagged for a closer look

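Each group of 4 Nbeal2-/- libraries was checked for a library far from its other 3, over the genes named in the text and the summed levels given there. Of 366 groups checked, 31 held such a library. The cutoff marks about 1 in 20 groups of independent, normally spread values. Groups with a single count are always marked and the genes share libraries, so the 31 cannot be set against that rate. Culture 1 held the outlying library in 20 of the 31. Untreated culture 1 held the only count of Dusp8, Il9 and Scn4b in its group, at 0.0198 CPM each. Untreated culture 3 held the only count of Ccl22 in its group, at 0.0204 CPM. Untreated culture 4 held the only count of Csf2 and Cd70 in its group, at 0.0214 CPM each. The IL-33 library of culture 1 stood apart at 85.0 CPM of Il9, 246 CPM of P2rx1, 1087 CPM of Cd74, 5.54 CPM of Cpt1a and 165 CPM of Atp6v0a1. The IL-33 library of culture 2 stood apart at 66.8 CPM of Tnfrsf1b. The IL-33 library of culture 3 stood apart at 16.0 CPM of Cdkn2c. The IL-33 library of culture 4 stood apart at 50.5 CPM of Kif23, 11.8 CPM of C1ql2 and 5.37 CPM of Stard9. The untreated library of culture 1 stood apart at 106 CPM of Kif23, 15.7 CPM of Gadd45b, 292 CPM of Socs1, 9.02 CPM of Il2ra, 1.82 CPM of Cd74 and 536 CPM of H2-K1. It also stood apart at 11.6 CPM of Xylt1, 1577 CPM of Calr, 18.7 CPM of Cpt1a and 86.0 CPM of Atp6v1a. The untreated library of culture 2 stood apart at 0.110 CPM of Irf4. The untreated library of culture 3 stood apart at 46.2 CPM of Stat4. The untreated library of culture 4 stood apart at 0.0642 CPM of Mcpt1. For the summed level of the MHC class II presentation list, untreated culture 1 was the highest, at 128 CPM against 90.5 to 95.8 in the others. For the summed level of the Mitosis and spindle list, untreated culture 1 was the lowest, at 3525 CPM against 3780.4 to 3814 in the others.

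The IL-33 response differed between Nbeal2-/- and WT cells, by the test of the difference itself in edgeR, for 57 of the 173 genes named in the text. The values are the log2 fold change in Nbeal2-/- minus that in WT, with 4 libraries in each of the 4 groups. 32 were positive and 25 negative. Positive differences were 4.19 for Dusp8, 2.57 for Ccl9, 2.23 for Tpsab1, 1.76 for Rab11fip5, 1.72 for Sema6d, 1.65 for Cxcl16, 1.53 for Ccl5 and 1.12 for Tgm2. Next came 1.06 for Cyp4a12b, 1.02 for Cyp4a12a, 0.99 for Ccl3, 0.89 for Tpsb2, 0.84 for Gzmc, 0.82 for Cd72, 0.68 for Bmf and 0.61 for Icam1. These were followed by 0.59 for Snap47, 0.57 for Acss2, 0.54 for Irf5, 0.53 for P2rx1, 0.51 for Atp6v0a1, 0.49 for Cd82, 0.44 for Tapbp and 0.41 for Ikbke. Then came 0.40 for Stx11, 0.32 for Ifitm1, 0.31 for Milr1, 0.31 for Zfp36l1, 0.28 for Birc3, 0.26 for Bid, 0.25 for Stat6 and 0.21 for Stat4. Negative differences were -2.24 for Mcpt2, -1.74 for Mcpt4, -1.36 for Mcpt8, -1.19 for Egr2, -1.18 for H2ac13, -0.77 for Tk1, -0.76 for Pilra and -0.76 for Fabp5. Next came -0.71 for Cdc25b, -0.70 for Cdc20, -0.69 for Gadd45b, -0.68 for E2f2, -0.62 for Serpinb1a, -0.59 for Tpx2, -0.59 for Cdkn2c and -0.58 for Ebi3. These were followed by -0.52 for Tubb5, -0.49 for Orc1, -0.48 for Chaf1a, -0.48 for Tedc1, -0.45 for Gbp3, -0.41 for Rfc5, -0.41 for Myc and -0.31 for Piezo1. Then came -0.28 for Calr. Of the 57, the calls of Bid, Birc3, Bmf, Calr, Ccl5, Cyp4a12a, Cyp4a12b, Egr2, Gbp3, Gzmc, Ifitm1, Milr1, Piezo1, Pilra, Stat4, Stat6 and Zfp36l1 were lost under at least 1 alternative, and those of Dusp8, Sema6d and Tpsab1 changed under limma on log2(RPM + 1). For Dusp8 the value rests on 1 count over the untreated Nbeal2-/- libraries. Mcpt1, Mcpt2, Mcpt4, Mcpt8, Tpsab1, Tpsb2, Gzmc, Gbp3 and the Cyp4a12 and histone genes belong to families of similar sequence whose reads may be shared.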

How the results depend on the processing

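Of the 173 genes named by the rule, 170 kept their direction and call for IL-33 against untreated under every alternative run. The exceptions were Nbeal2, Fabp5 and Ifitm1. The cause of the changes in this paragraph was not tested. Under limma on log2(RPM + 1) 460 genes rose and 542 fell by more than 2-fold. Leaving out each replicate in turn gave 3660 to 4280 genes higher and 4113 to 4328 lower, 852 to 918 and 1014 to 1094 beyond 2-fold, and 418 to 453 and 315 to 324 of the list genes. Library totals gave 33.5% of calls higher and limma 33.8%. The replicate block changed the call of Nbeal2 (log2 fold change -0.39, adjusted p = 0.00383), and with it 465 genes responded more and 467 less in Nbeal2-/- than in WT. With the block the Nbeal2-/- response of Fabp5 (-0.16, adjusted p = 0.0755) and the differences from WT of Birc3, Stat4, Stat6, Ccl5, Piezo1 and Bid missed the threshold (adjusted p 0.0537 to 0.0701), as did the response of Ifitm1 (0.15, adjusted p = 0.054) in the fit of Nbeal2-/- libraries alone. Of the 116 named genes with no called difference, 7 gained one with it, Ccne2, Ephx2, Hk2, Il13, Il2ra, Jak2 and Slc6a4 (adjusted p 0.00071 to 0.0479). The block changed no other call of the named genes.

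The difference from WT depended more on the setting. Genes that responded more numbered 196 without a filter and 605 by DESeq2, and those that responded less 602 by DESeq2 and 598 by limma. Leaving out replicates gave 180 (without untreated Nbeal2-/- culture 4) to 547 (without untreated WT culture 1) genes higher and 254 (without WT IL-33 culture 4) to 627 (without untreated WT culture 1) lower. Without both libraries of culture 1, chosen after seeing the data, the counts were 259 and 326. Of 57 called differences 37 held in every alternative. That of Dusp8 was -0.45 (adjusted p = 0.0245) under limma. For Fabp5 the IL-33 response in Nbeal2-/- was -0.16 (adjusted p = 0.0467). Of the 106 list counts 23 moved by over 1.5 times. The kB share fell from 40.6% to 12.5% with the spelling GGANTTTCC, and that of all tested genes with a window from 12.3% to 1.65%. Few counts behind low genes limit the folds, with 36.4 counts or more behind 1 CPM.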
